A study of Homo sapiens with 2 samples.

Results

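Translation factors are the proteins that load ribosomes onto mRNA, move them along it and release the finished chain. The genes described here were taken by name, as all probes of a gene expression array whose annotated symbol begins with EIF, EEF, PABPC or GSPT or is ETF1, with the 4 argonautes that once carried EIF2C symbols left out. The rule found 130 of 47231 probes, which belong to 79 of the 20039 genes named on the array. HepG2, a line of human hepatoma cells, was exposed for 4 h to 40 µM berberine chloride, a plant alkaloid, or to 0.08% DMSO, the vehicle. Total RNA of each group was hybridized to 1 Illumina HumanHT-12 v4 BeadChip, so each difference compares these 2 arrays, no test between groups was possible, and nothing below carries a p-value for the treatment. RNA was pooled from all cells of a culture, and fewer copies per cell cannot be told apart from fewer cells with the transcript.

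Initiation in human cells begins when eIF2, bound to GTP and the initiator tRNA, joins the small ribosomal subunit together with eIF1, eIF1A, eIF3 and eIF5. The cap-binding complex eIF4F recruits the mRNA, and once the start codon is found, eIF5 stimulates GTP hydrolysis on eIF2 and eIF5B joins the large subunit. Kinases of the EIF2AK family phosphorylate the alpha subunit of eIF2 under stress, which blocks its recharging by eIF2B and lowers overall protein synthesis. During elongation eEF1A delivers aminoacyl-tRNAs and eEF2 moves the ribosome, and EEF2K, the kinase of eEF2, slows that step.

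A probe counted as detected when its detection p, the share of negative-control values at or above it, was under 0.01. Detected probes made up 32.5% of the control array and 32.6% of the berberine array, and the lowest detected intensity was 142 and 152. The median intensity of all probes was 120.6 and 130.1, close to the estimated background of 112.5 and 121.5. Of 9 listed hepatocyte markers, 8 were detected on both arrays, albumin and alpha-fetoprotein among them, with log2 differences between -0.18 and 0.16 and intensities that summed to 110488 on the control array and 119430 on the other. Of the markers of other cell types, 0 of 4 fibroblast genes and 0 of 3 endothelial genes were detected, and 1 of 3 immune genes, CD68, had 908 and 1163.

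Among the translation factor genes, 65 of 79 were measured, which means that at least 1 probe was detected on both arrays. Most of them differed little between the arrays. Each difference given here is the log2 level with berberine minus that with DMSO, after background correction and quantile normalization, from the brightest detected probe of a gene. Of the 65 genes, 45 (69.2%) lay within 0.25 of 0, against 64.4% of all measured genes, and 60 (92.3%) lay within 0.5, against 88.5%. Their median was 0.05, where the median of all 9128 measured genes was -0.01. Members ran from -1.24 to 0.68, with 39 above 0 and 26 below. Of all measured genes, 4341 were above 0 and 4779 below.

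Over 1.5-fold, the fold threshold the study used for lower genes, 3 translation factor genes were lower in berberine-treated cells (EIF5, EIF2AK4 and EEF2K) and 2 were higher (PABPC3 and EIF3CL). These are 4.62% and 3.08% of the 65, where 4.09% of all measured genes were lower and 3.89% higher. In either direction the share was 7.69%, and 7.98% over all measured genes, so on this scale the number of calls does not set these genes apart. In the normalized intensity that the authors deposited, which keeps the background, the same 3 genes were lower (4.62%) and 0 were higher. Over all genes 1.01% were lower and 1.44% higher there (2.44% in either direction). The share of members that were lower was thus above that of all genes on the deposited scale, but it comes from 3 genes.

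**Figure D1:**
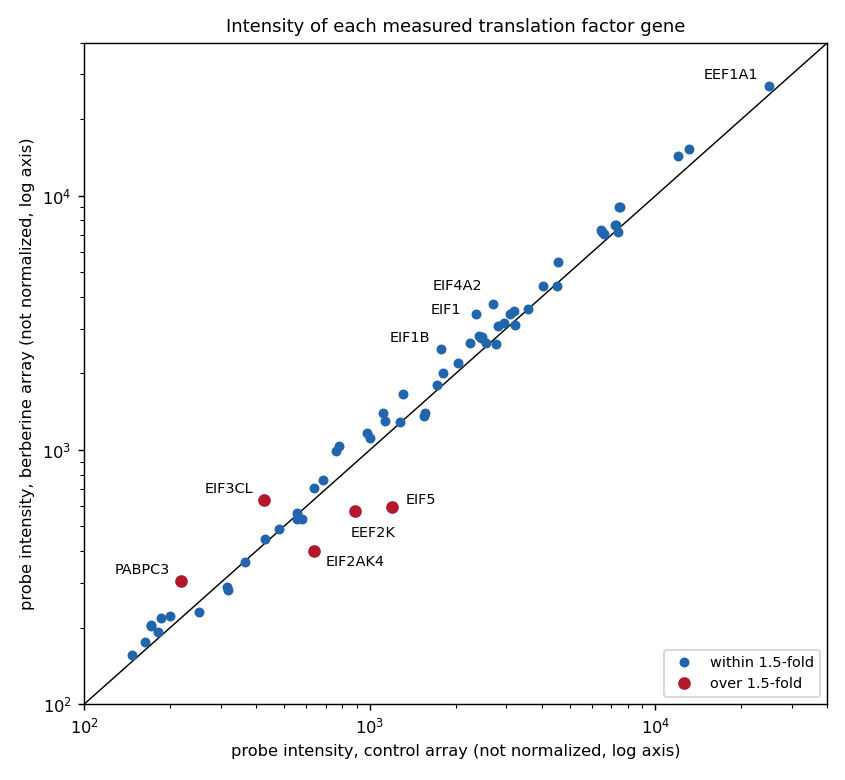
Probe intensity of the 65 measured translation factor genes on the control array (x axis) and the berberine array (y axis), before normalization, on log axes, with the line of equal intensity. EIF5, EEF2K and EIF2AK4 lie below the line, EIF3CL and PABPC3 above it, and the other genes, in blue, were within 1.5-fold after normalization.

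EIF5, the GTPase-activating protein of eIF2, showed the largest difference of the group in either direction. Its bright probe read 1192 in control and 593.9 in berberine-treated cells. This was 2.37-fold lower, a log2 difference of -1.24, and 13 of 9128 measured genes had a lower difference. The deposited normalized intensity of the same probe gave 2.13-fold. EIF5 has 3 further probes, all dim. A pair of these was detected on the control array only, at 152.7 against 130.3 and at 149.3 against 143.2, which gives bounds of at least 1.26-fold and at least 1.18-fold lower. For such bounds the undetected array was given either the probe's normalized reading there or that array's detection limit (its least detected value), whichever was greater. Since these probes were detected in control alone, their direction is fixed by that choice and adds nothing to the bright probe. The remaining probe, annotated to another EIF5 transcript, was detected on neither array, with 117.4 in control and 137.7 in treated cells. The EIF5 difference therefore rests on 1 probe.

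Of the 4 kinases of eIF2, 1 was over 1.5-fold lower. Over all measured genes 4.09% were, and 4 genes are too few to set against that share. EIF2AK4, also called GCN2, which senses uncharged tRNA when amino acids run short, read 639.4 in control and 399.7 in treated cells. It was 1.94-fold lower, with a log2 difference of -0.95 (1.69-fold in the deposited values), and 61 measured genes had a lower difference. The other kinases lay above 0 by their brightest probe. EIF2AK3, or PERK, the kinase of endoplasmic reticulum stress, read 185.5 and 219.1 (0.31, and 0.16 in the deposited values). EIF2AK1, the heme-regulated kinase, read 4556 and 5505 at its bright probe (0.16), but a second probe for another transcript gave -0.25, and the mean of both was -0.04. EIF2AK2, or PKR, which is activated by double-stranded RNA, read 1002 and 1117 (0.06). EIF2AK4, EIF2AK3 and EIF2AK2 were each read by a single probe.

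EEF2K was read by a single probe as well, at 884 in control and 574.5 in treated cells. It was 1.76-fold lower, with a log2 difference of -0.81 (1.62-fold in the deposited values), and 125 measured genes had a lower difference. The study picked EEF2K as a predicted target of miR-21-3p partly because it was lower on these arrays, so its direction here is not independent evidence. Apart from these arrays, the study also measured EEF2K mRNA by quantitative PCR. It reported a decrease with miR-21-3p mimics. It also reported that a miR-21-3p inhibitor rescued the predicted targets from their lowering by berberine. EEF2, the substrate of EEF2K, read 6456 and 7343, a log2 difference of 0.09.

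How far a single probe can be trusted was read from genes with several. Over 2193 genes with at least 2 detected probes, the SD of the difference of a single probe was 0.25 on the log2 scale. It was 0.19 over the 1048 pairs whose dimmer probe had a mean intensity of at least 300, and 0.29 over the other 1145. Probe error and unequal change of transcript variants both enter this SD. The spread between cultures does not, and was not measured. The differences of EIF5, EIF2AK4 and EEF2K were larger than 3 times the SD of 0.25. They are the largest of the 65 genes, and 125 of all 9128 measured genes had a lower difference than EEF2K. All but 5 of the 65 genes (92.3%) were within 2 times that SD, as were 88.5% of all measured genes.

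The genes over 1.5-fold higher carry a further limit. PABPC3, an intronless relative of the poly(A)-binding protein PABPC1, read 217.3 in control and 305.6 in treated cells at its detected probe. It was 1.60-fold higher (0.68), but 1.33-fold in the deposited values, and its second probe was not detected on either array. EIF3CL read 425.2 and 635.4, which was 1.53-fold higher (0.62) and 1.40-fold in the deposited values. EIF3CL is a near-identical copy of EIF3C, a core subunit of eIF3, whose own probe read 171.1 and 205.5 (0.38, and 0.17 in the deposited values). PABPC3 likewise resembles PABPC1, which gave 0.05 at its bright probe. Which transcript these probes read is uncertain.

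**Figure D2:**
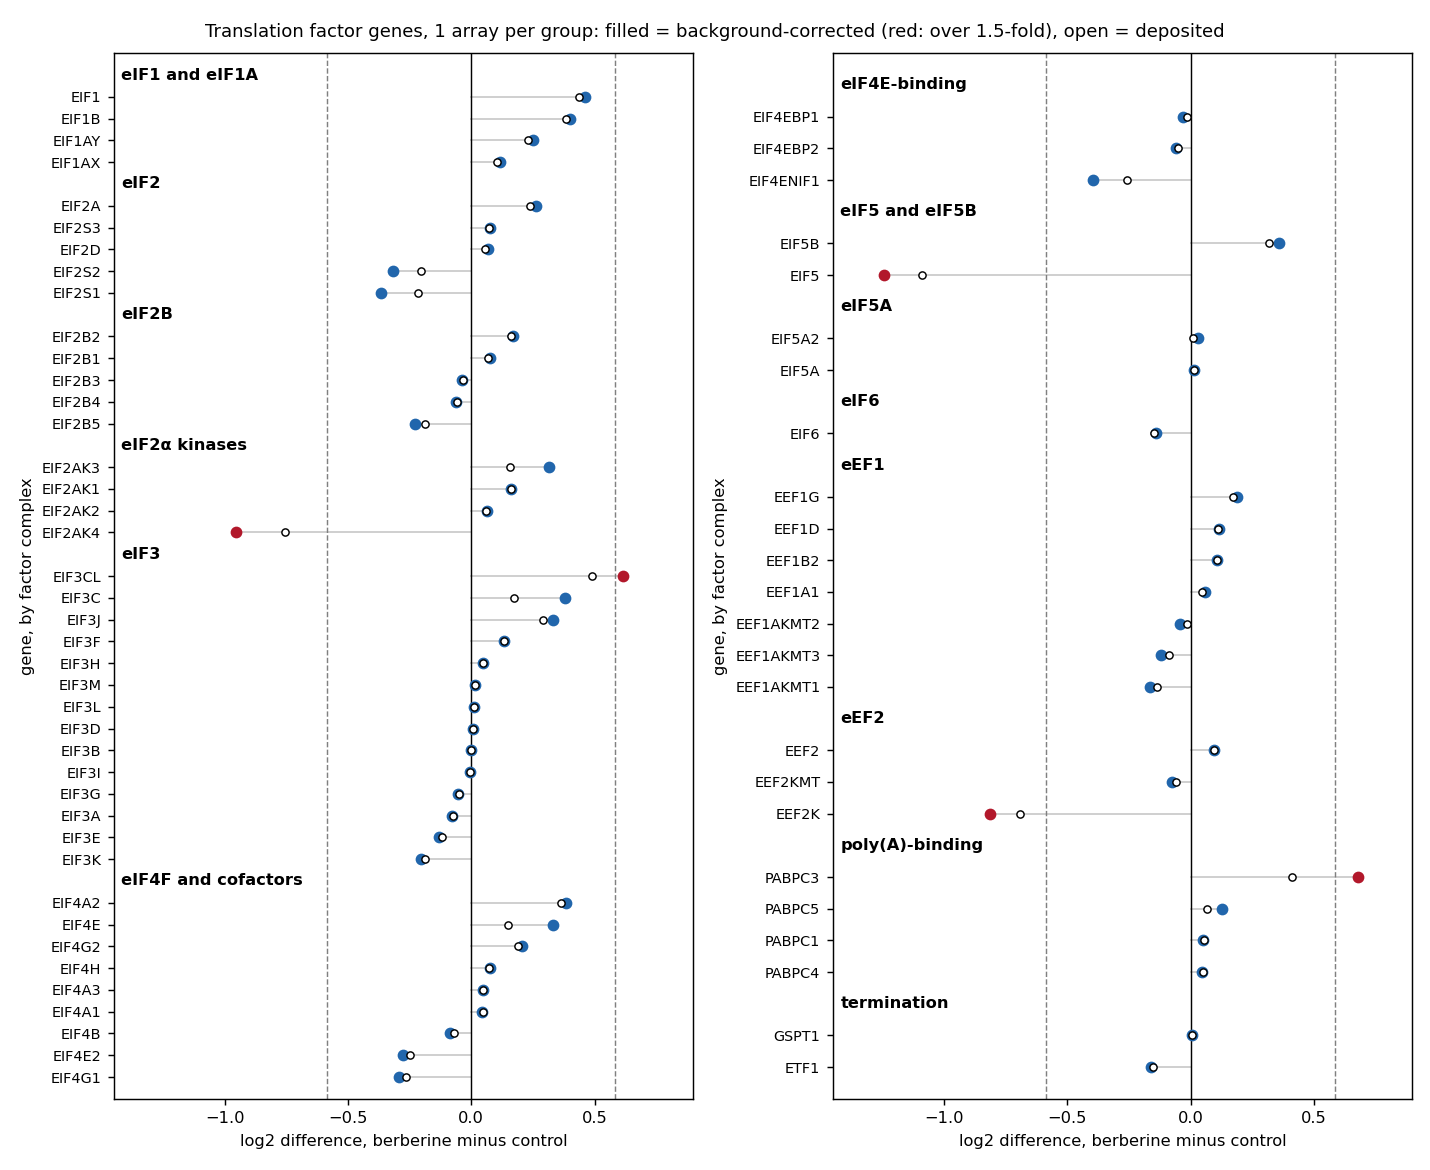
Log2 difference, berberine minus control, of each of the 65 measured translation factor genes, grouped by complex. Filled points are background-corrected values, red where over 1.5-fold, open points are the deposited normalized intensity, and dashed lines mark 1.5-fold. EIF5 lies at -1.24 and EIF5B at 0.36, and EIF2AK4 at -0.95 stands apart from the other kinases.

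Among the factors that scan for the start codon, all 4 measured genes of eIF1 and eIF1A were above 0, with a median of 0.33, and none passed 1.5-fold. They were above 0 under each alternative processing as well, but these rework the same 2 arrays and add no measurement. EIF1 and EIF1B were each read by a single probe, so the mean of probes could not change them. Of all 65 measured members, 39 were above 0. EIF1, which keeps initiation strict at the start codon and is displaced when it is found, read 2345 and 3437 (0.46), and 576 of the 9128 genes had a higher difference. EIF1B, a close relative, read 1781 and 2504 (0.40). EIF1AX and EIF1AY, the X-linked and Y-linked forms of eIF1A, had 0.12 and 0.25. A second probe of EIF1AX gave -0.07. EIF1 and EIF1B had nearly the same values in the deposited intensity, 0.44 and 0.38. EIF5B, the GTPase that joins the large subunit, read 778.1 and 1038 (0.36). EIF1, EIF1B and EIF5B were thus above 0 and EIF5 below it.

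Of the eIF2 complex, the alpha and beta subunits EIF2S1 and EIF2S2 were at -0.37 and -0.32, and the gamma subunit EIF2S3 at 0.07. EIF2S1 read 252.4 and 230.8 and EIF2S2 read 316 and 288.6, and in the deposited values both were smaller, at -0.22 and -0.20. The gamma subunit read 2467 and 2788. EIF2A and EIF2D, which can bring initiator tRNA to the ribosome without eIF2, had 0.26 and 0.07. The 5 subunits of eIF2B, the exchange factor of eIF2, stayed between -0.23 (EIF2B5, the catalytic subunit) and 0.17 (EIF2B2), with a median of -0.04.

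The eIF3 complex, the largest initiation factor and a scaffold on the small subunit, was nearly flat by the brightest probe of each gene. All 14 listed genes were measured. Without EIF3C and EIF3CL, the other 12 subunits had a median of 0.00, with 6 above 0 and 6 below. EIF3K, at 2774 and 2609, was the lowest with -0.20. EIF3J, a loosely bound subunit, was the highest of the 12 at 759.4 and 989.5 (0.33). Of the core subunits, EIF3A had -0.08 and EIF3B 0.00, with -0.10 and -0.20 at the further probes of EIF3B. EIF3L and EIF3M had 0.01 and 0.02, with 0.17 and 0.29 at their second probes.

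For the eIF4F complex and its cofactors, 9 of 11 genes were measured, none passed 1.5-fold, and the median was 0.05. EIF4A2, a form of the RNA helicase of the complex, read 2705 and 3744 (0.38), while EIF4A1, the main form, read 13134 and 15304 (0.05). EIF4A3, the related helicase of the exon junction complex, had 0.05. EIF4G1, the scaffold, was the lowest with 1543 and 1365 (-0.29), but a second probe gave 0.04. EIF4G2, a relative of EIF4G1 that lacks the site for the cap-binding protein, had 0.21 at its brightest probe and 0.33 and -0.07 at the others. EIF4E, the cap-binding protein, read 171.8 and 203 at its brighter probe (0.33, and 0.15 in the deposited values) and gave -0.04 at the other, and 3 more probes were not detected. EIF4E2, a cap-binding relative that represses translation, had -0.28. The helicase cofactors EIF4B and EIF4H had -0.09 and 0.08.

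The 3 measured genes whose products bind eIF4E in place of eIF4G were all below 0 but within 1.5-fold. EIF4EBP1 and EIF4EBP2, the inhibitors that mTOR switches off, had -0.03 and -0.06. EIF4ENIF1, which carries eIF4E into the nucleus and processing bodies, read 319 and 281.4 (-0.40, and -0.26 in the deposited values). EIF4EBP3 was the only translation factor gene detected on 1 array alone. It read 156.2 in control and 149.6 in treated cells, with detection p-values of 0.0026 and 0.0104. Its bound was at least 1.34-fold lower (at least 1.10-fold in the deposited values). The direction of this bound is fixed by detection in control alone, and probe error is not part of it, so it is no evidence of a decrease. The detection p of the treated cells missed the threshold narrowly.

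Elongation factors, which are among the most abundant proteins of a cell, differed little. EEF1A1, which delivers aminoacyl-tRNAs, has 3 bright probes that did not share a sign. They read 24938 and 27010 (0.06, the value used), 23760 and 25845 (0.06), and 25803 and 25263 (-0.11). A dim probe gave -0.14, and the mean of the 4 was -0.03. Its partners in the exchange complex, EEF1B2, EEF1D and EEF1G, had 0.11, 0.11 and 0.19. The 4 measured subunits of eEF1 were all above 0 at the brightest probe of each gene, but with the mean of all detected probes 2 were above and 2 below. EEF1B2 is the member whose probes differed most among themselves. A pair of bright probes, at 12014 and 10767 in control, gave 0.11 and 0.07, and a pair of dimmer probes, at 1351 and 945.6, gave -0.23 and -0.53. A further EEF1B2 probe was detected on the berberine array only, with 134.4 and 169.9. Its bound was at least 1.39-fold higher (at least 1.12-fold in the deposited values). The direction of this bound is fixed by detection on the berberine array alone and adds nothing to the other probes. The methyltransferases that modify eEF1A and eEF2, EEF1AKMT1, EEF1AKMT2, EEF1AKMT3 and EEF2KMT, lay between -0.16 and -0.04 by the brightest probe of each. EEF2KMT had -0.07 there and -0.24 and -0.56 at 2 further probes, with a mean of -0.29.

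EIF5A, the factor that carries the amino acid hypusine and helps ribosomes past difficult stretches, had 0.01, and its relative EIF5A2 had 0.03. EIF6, which keeps the large ribosomal subunit from joining too early, read 4511 and 4432 (-0.14). In termination, ETF1, which recognizes stop codons, had -0.16 and -0.35 at its detected probes, and its GTPase partner GSPT1 had 0.01. The cytoplasmic poly(A)-binding proteins PABPC1 and PABPC4, which link the mRNA tail to eIF4G, had 0.05 each, and PABPC5, an X-linked relative, had 0.13.

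Another 13 genes were detected on neither array and give no comparison. They were EEF1A2, the elongation factor form of muscle and neurons, the selenocysteine factor EEFSEC, EIF1AD, EIF4E1B, EIF4E3, EIF5AL1, GSPT2, PABPC1L2A, PABPC1L2B and PABPC4L, and the non-coding EIF3IP1, EIF3J-DT and PABPC1P2. By probe, 91 of 130 were detected on both arrays, 3 on the control array only, 1 on the berberine array only and 35 on neither.

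**Figure D3:**
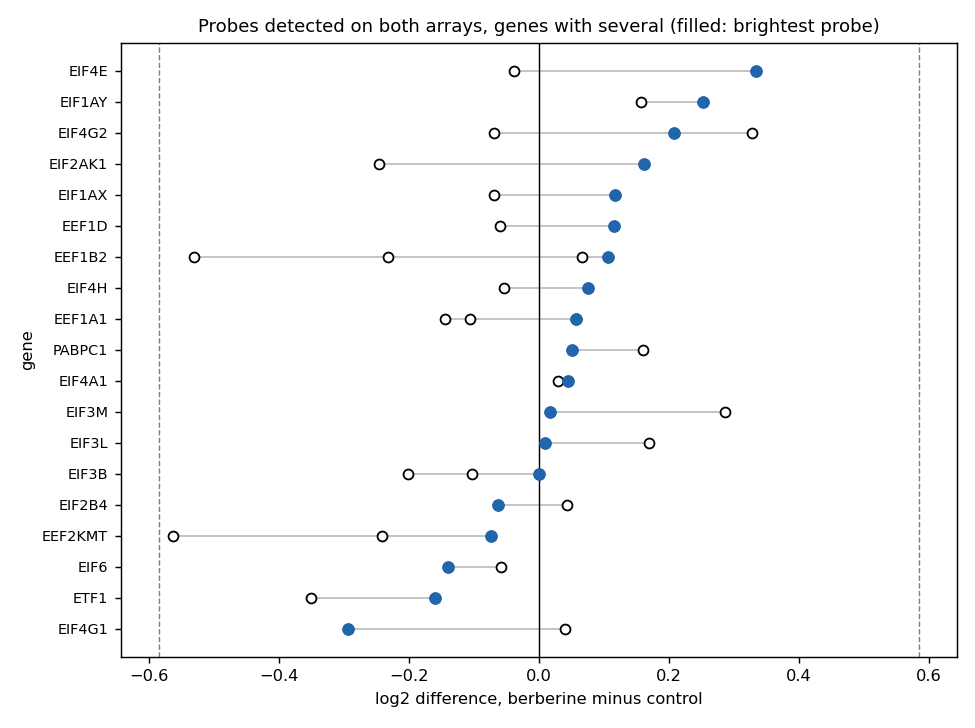
Log2 difference, berberine minus control, of every probe detected on both arrays for the 19 translation factor genes with at least 2 such probes. The filled point is the brightest probe, open points are the other probes, and dashed lines mark 1.5-fold. No probe of these 19 genes passed 1.5-fold, and EEF1B2 spans the widest range, from -0.53 to 0.11.

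Of the 65 measured genes, 19 had at least 2 detected probes and 46 had 1. The distance between the highest and lowest probe of a gene ran from 0.016 (EIF4A1) to 0.638 (EEF1B2), with a median of 0.190, and EEF1B2 alone exceeded 0.5. All 5 genes over 1.5-fold were among the 46 with 1 probe detected on both arrays, so their differences have no second measurement of this kind.

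Several elongation and initiation factors belong to the mRNAs with a 5′ terminal oligopyrimidine tract, a run of pyrimidines that begins with the first base of the transcript and through which mTOR controls their translation. To describe genes with and without such a start, the bases around the annotated transcript starts in RefSeq (GRCh38.p14) were read for 60 of the 79 genes. A tract was counted where the first base was C and opened a run of at least 5 bases that were each C or T, on the transcribed strand. The stretches below show 10 bases before the start and 20 from it, with the tract in capitals, for the 3 genes that were lower and for 5 genes within 1.5-fold, of which EEF1A1, EEF2, EEF1B2 and EIF4A2 have a tract and EIF1 has none. EIF5 and EEF1B2 each have a further annotated start, shown as well, and that of EEF1B2 has no tract.
EIF5 (chr14:103334227-103334256, plus strand): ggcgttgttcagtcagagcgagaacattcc
EIF5, further start (chr14:103334878-103334907, plus strand): ggcacccctcggccgtgtgtcgcttcccgg
EIF2AK4 (chr15:39934105-39934134, plus strand): gcccgtccccagcgcggagccccgccccgc
EEF2K (chr16:22206268-22206297, plus strand): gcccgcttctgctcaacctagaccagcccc
EEF1A1 (chr6:73521013-73521042, minus strand): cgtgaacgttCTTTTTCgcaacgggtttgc
EEF2 (chr19:3985444-3985473, minus strand): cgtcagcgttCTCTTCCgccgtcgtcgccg
EEF1B2 (chr2:206159885-206159914, plus strand): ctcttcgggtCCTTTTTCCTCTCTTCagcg
EEF1B2, further start (chr2:206159599-206159628, plus strand): aagtggccccagcctcgaggccgggcgtct
EIF4A2 (chr3:186783567-186783596, plus strand): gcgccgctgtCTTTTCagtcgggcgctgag
EIF1 (chr17:41688875-41688904, plus strand): ccgcccctctgccccagtcactgagccgcc

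Such a tract stood at 12 of 78 annotated starts of these genes (15.4%) and at 1429 of 35116 starts in the whole set (4.07%). The 12 genes that have it at an annotated start were EEF1A1, EEF1B2, EEF2, EIF2A, EIF2D, EIF2S3, EIF3D, EIF3F, EIF3K, EIF3M, EIF4A2 and EIF4B. All 12 were measured, their median difference was 0.07, they ran from -0.20 to 0.38, and none passed 1.5-fold. Of the 48 genes without it, 37 were measured, with a median of 0.03 and a range from -1.24 to 0.46, and EIF5, EIF2AK4 and EEF2K are the 3 that passed. Over all measured genes 7.98% passed, and with so few genes neither count stands apart from that share. PABPC3 and EIF3CL, the genes over 1.5-fold higher, were not among the 60 genes whose starts were read. An annotated start can lie some bases away from the one a cell uses, so a missing tract says only that these letters are not at that position.

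Outside the rule of names, 40 further genes that act on these factors were listed, of which 34 were measured. Their median was 0.03, and 1 was over 1.5-fold higher and 1 lower (2.94% each, against 3.89% and 4.09% of all genes). PPP1R15A, which directs a phosphatase to the alpha subunit of eIF2 and so reverses the action of the kinases, read 410 and 2584 (2.89, and 2.54 in the deposited values). PDCD4, which binds the helicase EIF4A1 and blocks it, read 1042 and 670 (-0.83, and -0.73). PPP1R15A and PDCD4 each had a single probe detected on both arrays. METAP2, an aminopeptidase that binds the alpha subunit of eIF2, had 0.40. PAIP1, a partner of PABPC1, had -0.50 at a dim probe that read 226 and 200 (-0.26 in the deposited values). BZW1 and BZW2, which mimic the eIF2-binding part of eIF5, had 0.26 and 0.04, and a second probe of BZW1 gave -0.14. The kinases of eIF4E, MKNK1 and MKNK2, had -0.33 and -0.34. MTOR had 0.17. RPTOR read 154 and 176, near the lowest detected intensities, and had 0.26 (0.10 in the deposited values). DHPS and DOHH, which make hypusine on eIF5A, had 0.13 and 0.25.

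**Figure D4:**
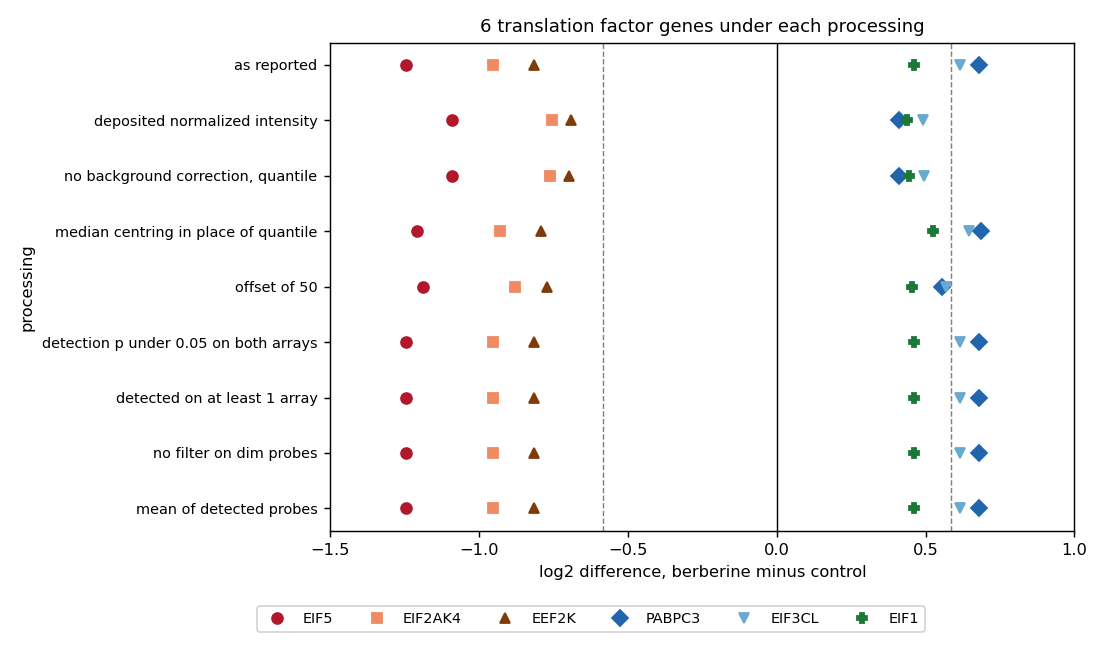
Log2 difference, berberine minus control, of 6 translation factor genes (x axis) under the reported processing and 8 alternatives (rows), with dashed lines at 1.5-fold. EIF5, EIF2AK4 and EEF2K stay beyond 1.5-fold lower in every row, EIF1 stays within 1.5-fold, and PABPC3 and EIF3CL fall inside 1.5-fold in the deposited intensity, without background correction and with an offset of 50.

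With other processing, EIF5 stayed between -1.24 and -1.09, EIF2AK4 between -0.95 and -0.76 and EEF2K between -0.81 and -0.69. The filters on dim probes and the mean of probes could not change these values, since each gene was read by the same bright probe.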

How the data were processed

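Total RNA of HepG2 cells was measured on 1 BeadChip per group. The submitters' processing notes name GenomeStudio with no version in the sources used here. The labels name a Roche kit for RNA isolation, and the methods of the study name TRIZOL. The authors deposited probe intensity without background subtraction or normalization, together with detection p-values that step by 1 of 770 negative-control values. They also deposited linear intensity already normalized between the arrays, by a method that is not named.

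The non-normalized intensity was processed with the neqc function (limma 3.58.1, R 4.3.3: normexp background from the detection p-values, offset 16, quantile normalization, log2), which enlarges folds of dim probes against the deposited values. Further steps used Python 3.11.15, pandas 2.3.3, numpy 2.4.6 and matplotlib 3.10.9, and were tested on simulated data. Of 47231 probes, 30113 had 1 gene symbol, updated through Entrez identifiers or accessions to RefSeq names (GRCh38.p14) for all but 21. A gene took its brightest probe detected on both arrays at p under 0.01.

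Genes named in the text are EIF5, EEF2K, the EIF2AK kinases, members over 1.5-fold, the highest and lowest of each complex, those with probes over 0.5 apart or detected on 1 array, and the 5 brightest. Others are named to complete a complex. Of the genes outside the rule, those over 1.5-fold are named, and the others were chosen after their values were seen. The members and lists were chosen with earlier results of these data known. With 1 array per group no p-value between groups was computed, and the number of arrays limits the precision.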

Additional observations from a re-analysis of the deposited data

How the results depend on the processing

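Of the alternatives to the background correction, normalization, offset, filter and choice of probe, 8 were planned. The number of translation factor genes over 1.5-fold higher was 2, and 0 with the deposited normalized intensity, with no background correction, with an offset of 50, and without near-identical copies such as EIF3CL and PABPC3, an alternative added after seeing the data. PABPC3 had 0.41 in the first and second of these. The number of genes over 1.5-fold lower was 3 under every alternative run, and the median of the members stayed between 0.01 and 0.08. With the mean of probes EEF1B2 went from 0.11 to -0.15, EEF1A1 from 0.06 to -0.03 and EIF2AK1 from 0.16 to -0.04. No difference over 1.5-fold turned its sign. Among all measured genes, 355 were over 1.5-fold higher and 373 lower (48.8% higher), against 131 and 92 in the deposited values and without background correction (58.7% higher), 214 and 218 with an offset of 50, 536 and 544 when detection on 1 array sufficed, and 670 and 669 with no filter. No paired analysis was possible because each group has 1 array. Dim probes limit the reading of EIF4E, EIF3C, EIF2AK3, PABPC3, EIF4EBP3, EEF1AKMT2, EIF5A2, EIF4EBP1 and PABPC5. These lie near the lowest detected intensities of 142 and 152, so the small differences of the last 4 are not well measured either.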
